A study of Mus musculus with 2 samples.

Results

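The 10 genes followed here are best known from white and brown adipocytes, and were measured by long-read RNA sequencing of mouse adrenal gland: Ucp1, Cidea, Cidec, Plin1, Adipoq, Cfd, Car3, Fabp4, Lpl and Retn. The list was drawn up by gene name, with earlier results of these data known, so counts of members beside those of all genes are a description. All 10 members were read in both libraries, among 17707 annotated genes with at least 1 read. The samples form 1 group, adrenal gland of female B6CASTF1/J mice aged 18 to 20 months, with 2 libraries labelled as biological replicates 1 and 2 and made from 1 µg of total RNA each. No treatment, genotype contrast or second tissue is part of the design, so every comparison below sets replicate 1 against replicate 2. One label field numbers the females of the 2 libraries differently, another gives both the same number, and both libraries point to the same donor entry. The labels therefore do not settle whether the tissue came from separate animals, and p-values compare these 2 libraries with counting error alone, so a difference may be technical.

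White adipocytes store triglyceride in a single large lipid droplet, whose surface is held by perilipin 1 (Plin1) and enlarged by CIDEC, and they secrete adiponectin (Adipoq), resistin (Retn) and adipsin (Cfd). Brown adipocytes carry many droplets, express CIDEA, and burn fatty acids for heat through the uncoupling protein UCP1 of the inner mitochondrial membrane. Lipoprotein lipase (Lpl) frees fatty acids from circulating lipoproteins, FABP4 binds them inside the cell, and carbonic anhydrase 3 (Car3) is a cytosolic enzyme abundant in fat, liver and skeletal muscle. Several of these genes are also known outside fat: Lpl and Car3 in muscle, and Fabp4 in endothelium and macrophages.

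Replicate 1 held 1478362 reads and replicate 2 held 1007541, of which 1412947 and 933963 fell on annotated genes. A level is given in CPM, the usual depth-scaled count of a gene's reads within those gene reads. It is not divided by transcript length, because each long read stands for 1 cDNA molecule. A gene with 0 reads could still lie at up to 2.12 CPM in replicate 1 and 3.21 CPM in replicate 2, the level of 3 reads. The adrenal source showed in 6 cortex genes, which took 7.31% and 7.29% of gene reads, and of 5 medulla genes, with 1.20% and 0.941%. Markers of skeletal muscle set replicate 1 apart: 17 such genes held 1358 reads there (0.0961% of gene reads) and 63 in replicate 2 (0.00675%). Actin alpha 1 (Acta1) had 333 and 0 reads, muscle creatine kinase (Ckm) 240 and 0, and the calcium pump gene Atp2a1 407 and 1. The enolase gene Eno3 was the exception among the 4 highest, with 102 and 55 reads.

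The 10 fat genes together held 16249 reads in replicate 1, or 1.15% of gene reads (95% Clopper-Pearson interval 1.13 to 1.17%), and 7035 reads in replicate 2, or 0.753% (0.736 to 0.771%). The mean was 0.952 ± 0.281% (SD, n = 2). All 10 scaled ratios leaned to replicate 1, that of Cidea by 0.03 on the log2 scale, a sign that turns without TMM scaling. Of the 10, 8 were past an exact binomial test with Benjamini-Hochberg adjustment at 0.05, all 8 higher in replicate 1 and 0 higher in replicate 2. Over all 11068 genes tested, 5.88% were past that test as higher in replicate 1 and 5.74% as higher in replicate 2. The members' median log2 ratio of replicate 2 over replicate 1 was -0.58, against 0.00 over all genes tested, where 49.5% lay below 0. With a dispersion estimated from the same 2 libraries (a coefficient of variation of 21.5%), edgeR's exact test called 0 members and 0.244% of genes. At an unadjusted p under 0.05 that exact test held 3 members and 515 genes. In bulk tissue, fewer cells of a type and less RNA per cell cannot be told apart.

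**Figure D1:**
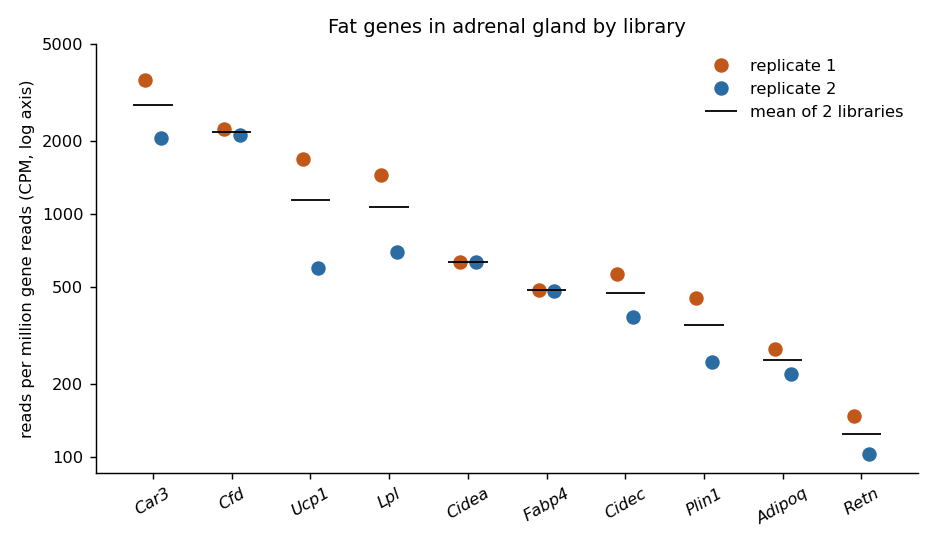
Level of each fat gene in CPM (log axis) in replicate 1 and replicate 2, with the mean of the 2 libraries as a line, ordered by mean. Car3, Ucp1 and Lpl lie apart between the libraries, while Cidea and Fabp4 coincide.

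On this scale of reads per molecule, the members ran from Car3 at 2817 ± 1068 CPM (SD, n = 2), rank 20 of all genes, to Retn at 125 ± 31.4 CPM, rank 1712. Between them stood, in falling order of mean, Cfd (2165 ± 88.0 CPM), Ucp1 (1144 ± 768), Lpl (1071 ± 527), Cidea (637 ± 0.0733), Fabp4 (486 ± 3.86), Cidec (472 ± 133), Plin1 (349 ± 146) and Adipoq (250 ± 41.7). The ranges of the 2 libraries overlapped for the neighbours Car3 and Cfd, Ucp1 and Lpl, Fabp4 and Cidec, Cidec and Plin1, and Plin1 and Adipoq. They did not overlap between Cfd and Ucp1, Lpl and Cidea, Cidea and Fabp4, or Adipoq and Retn.

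**Figure D2:**
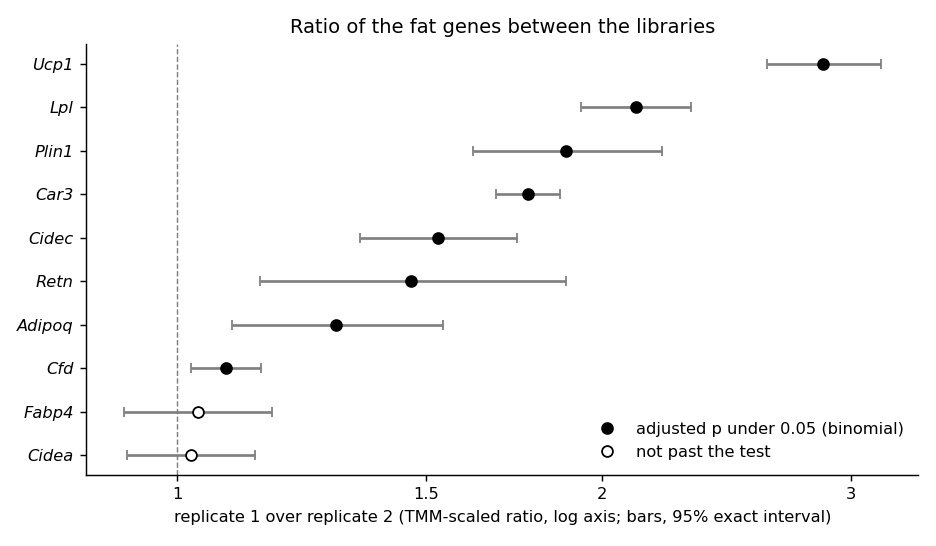
Scaled ratio of replicate 1 over replicate 2 for each fat gene (log axis), with 95% exact intervals for counting error; filled points were past the binomial test after adjustment over all genes. The ratios run from 1.02 for Cidea to 2.87 for Ucp1.

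Of the genes tied to heat production, Ucp1 had 2384 reads in replicate 1 and 562 in replicate 2, or 1687 and 602 CPM. It was 2.87-fold higher in replicate 1 (interval 2.61 to 3.15, binomial adjusted p = 1.1e-131), the widest gap among the members. Cidea, which codes for a droplet protein that brown fat shares with other lipid-storing cells, had 900 and 595 reads, and its levels were both 637 CPM. Its ratio was 1.02 (interval 0.921 to 1.14, adjusted p = 0.946). Ucp1 thus outnumbered Cidea 2.65 to 1 in replicate 1 (interval 2.45 to 2.86) but not in replicate 2, where the ratio was 0.945 (0.840 to 1.06). This pair was chosen after its values were seen, and the ratio within a library does not depend on how the libraries are scaled.

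The other genes of the brown fat list, 14 in all, leaned to replicate 1, though not evenly. Of the 12 with enough reads, 7 were higher in replicate 1, 0 were higher in replicate 2 and 5 were not past the test, with a median log2 ratio of -0.72. Elovl3, a fatty acid elongase of brown fat, stood at 614 and 188 CPM, 3.33-fold higher in replicate 1 (2.83 to 3.94). The fatty acid binding protein gene Fabp3, which muscle expresses too, stood at 304 and 87.8 CPM, 3.54-fold higher (2.79 to 4.54). The respiratory chain subunit genes Cox8b (403 and 418 CPM) and Cox7a1 (130 and 148 CPM) lay near each other in the libraries, with ratios of 0.986 and 0.901. Zic1, a transcription factor gene of classical brown fat, had 0 reads in both. Ucp1's close relatives were far lower than Ucp1: Ucp2 had 49 and 27 reads, and Ucp3, known from muscle, had 79 and 24 reads and was 2.23-fold higher in replicate 1 (1.39 to 3.68, adjusted p = 0.0061). The muscle list moved in the same direction as Ucp1, Fabp3 and Ucp3, and its part in these results was not tested.

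Because Ucp1 showed the largest gap, the 250 bases before its start are given, from the RefSeq promoter table (GRCm38.p6, chr8:83290098-83290347, plus strand, 5′ to 3′), with motif matches in capitals.
Ucp1: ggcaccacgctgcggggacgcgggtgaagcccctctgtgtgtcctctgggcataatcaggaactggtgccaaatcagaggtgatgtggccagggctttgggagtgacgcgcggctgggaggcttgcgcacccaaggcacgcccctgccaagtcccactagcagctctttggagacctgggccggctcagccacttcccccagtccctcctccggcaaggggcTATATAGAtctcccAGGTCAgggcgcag
The letters searched, on both strands, were TATANA for the TATA-binding protein, the CAAT box motif CCAAT, the Sp1 motif GGGCGG, the single nuclear receptor site AGGTCA and the PPAR DR1 element, which joins 2 of those sites with any 1 base between and so overlaps them. The Ucp1 window held TATANA in overlapping matches, 28 and 26 bases before the start, and AGGTCA 14 bases before it. Of all 32851 windows of that length in the table, 22.6% held TATANA, 33.8% the CAAT box, 32.7% the Sp1 motif, 14.0% the single receptor site and 0.0335% the DR1 element. The table matched 6 of the 10 members, with 7 windows, and not Cidea, Car3, Fabp4 or Lpl. Among the 7, TATANA and the single receptor site were in the Ucp1 window alone, the CAAT box in that of Adipoq alone, and the Sp1 motif and the DR1 element in none. A match is a description of the letters of the reference strain, not of a bound site.

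The droplet genes Cidec and Plin1 were both higher in replicate 1. Cidec had 799 and 353 reads (565 and 378 CPM), a ratio of 1.53 (1.35 to 1.74, binomial adjusted p = 8.3e-10). Plin1 had 639 and 229 reads (452 and 245 CPM), a ratio of 1.89 (1.62 to 2.20, adjusted p = 1.3e-15). Of 12 further droplet and lipolysis genes tested, 5 were higher in replicate 1, 0 in replicate 2 and 7 were not past the test. Plin2, the perilipin of most lipid-storing cells including adrenal cortex, stood above Plin1, at 1159 and 687 CPM, and was 1.72-fold higher in replicate 1 (1.57 to 1.89). The triglyceride lipase gene Pnpla2 was 1.39-fold higher (1.23 to 1.56), at 607 and 448 CPM. Plin5, at 209 and 181 CPM, and the monoglyceride lipase gene Mgll, at 260 and 277 CPM, were not past the test. Cideb, the liver member of the Cide family, had 0 reads in both libraries.

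Cidec reads were joined from either of 2 first-exon regions on the minus strand of chromosome 6, whose annotated starts lie 996 bases apart. The transcripts Cidec-202 (chr6:113424634-113435760) and Cidec-201 (chr6:113424636-113435756) use an upstream first exon with donors 11 bases apart. Cidec-203 (chr6:113425557-113434764) uses a downstream first exon that lies in their first intron. Of reads joined across the first junction, the upstream exon took 376 of 633 in replicate 1, 59.4% (55.5 to 63.3%), and 194 of 268 in replicate 2, 72.4% (66.6 to 77.7%). Cidec-203 took 257 reads (40.6%) and 74 reads (27.6%). The counting intervals of these shares do not overlap between the libraries. The choice of start was not tested on its own. The Fisher exact test of Cidec-202 against all other Cidec reads gave 32.4% and 33.1% (adjusted p = 1.0), and a chi-square test over all Cidec isoforms gave an adjusted p of 0.036. That chi-square test called 145 of the 5429 genes it covered.

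The transcripts differ in coding sequence: Cidec-203 codes for 249 codons and the other 2 transcripts for 239. The spliced letters from the start codon of Cidec-203 to the start codon used by Cidec-201 and Cidec-202 (GENCODE M21 on mm10, within chr6:113434485-113434734, minus strand) show the 10 added codons, with both start codons in capitals.
Cidec-203: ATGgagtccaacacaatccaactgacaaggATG
The 250 bases before each start are given to compare the regions (RefSeq, GRCm38.p6, minus strand), first chr6:113435761-113436010 and then chr6:113434765-113435014. None of the motifs searched is in either window, so the letters are all in lower case.
Cidec upstream start: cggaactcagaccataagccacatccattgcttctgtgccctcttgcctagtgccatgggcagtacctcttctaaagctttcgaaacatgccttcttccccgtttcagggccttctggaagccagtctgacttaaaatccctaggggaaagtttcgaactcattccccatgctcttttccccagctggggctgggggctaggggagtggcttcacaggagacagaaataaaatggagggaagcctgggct
Cidec downstream start: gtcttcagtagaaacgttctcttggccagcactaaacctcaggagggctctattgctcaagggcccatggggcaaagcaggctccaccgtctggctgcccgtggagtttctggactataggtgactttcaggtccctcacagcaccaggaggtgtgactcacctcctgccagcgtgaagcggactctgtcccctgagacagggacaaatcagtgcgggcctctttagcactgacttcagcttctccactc

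Plin1 lies on the minus strand of chromosome 7, and its reads fell mainly on Plin1-206 (chr7:79720218-79732787, 210 and 78 reads), Plin1-202 (chr7:79721164-79732171, 156 and 33) and Plin1-201 (chr7:79721164-79732776, 81 and 26). All 3 code for 517 codons. Among reads across a first intron, 72.0% in replicate 1 (66.9 to 76.8%) and 75.4% in replicate 2 (66.6 to 82.9%) used that of Plin1-206, and the remainder that of Plin1-201. Plin1-202 has no such intron, so a Plin1-206 read that lacks its first exon would be counted on it, and the sources cannot be told apart. The main isoform share of Plin1 was not past the Fisher exact test (32.9% and 34.1%, adjusted p = 1.0). The chi-square test over all its isoforms, which called 145 of 5429 genes, gave an adjusted p of 0.022.

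**Figure D3:**
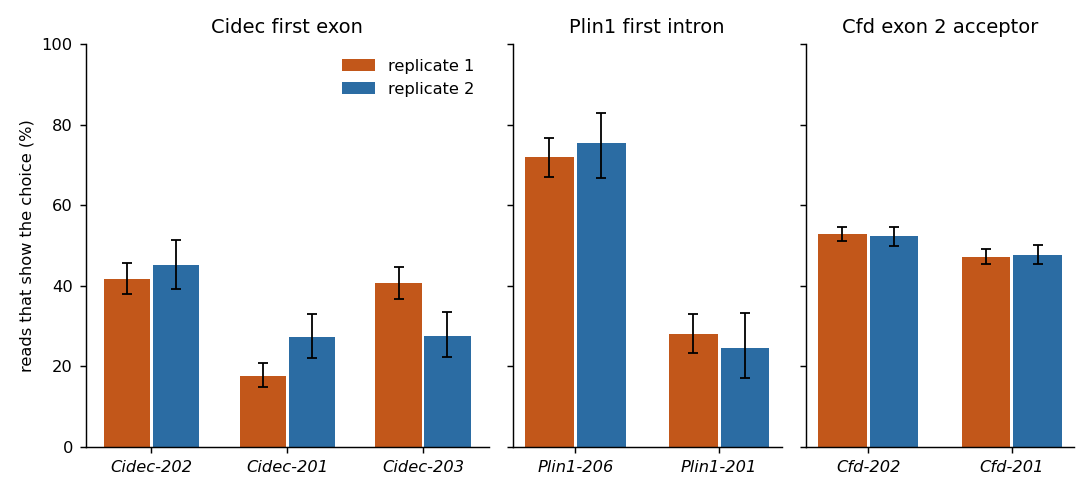
Share of reads with each choice at the first exon of Cidec, the first intron of Plin1 and the second exon of Cfd, in replicates 1 and 2, with 95% Clopper-Pearson intervals. The Cidec-203 bar stands at 40.6% and 27.6%, while both Cfd bars lie near 50% in each library.

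Of the secreted factors, Adipoq and Retn were modestly higher in replicate 1, and Cfd was nearly level. Adipoq had 395 and 206 reads (280 and 221 CPM), a ratio of 1.30 (1.09 to 1.54, binomial adjusted p = 0.027). Retn had 208 and 96 reads (147 and 103 CPM), a ratio of 1.46 (1.14 to 1.89, adjusted p = 0.022). Cfd had 3147 and 1964 reads (2227 and 2103 CPM), a ratio of 1.08 (1.02 to 1.15, adjusted p = 0.048). These 3 calls sit close to the threshold. Adipoq lost its call when totals were not TMM-scaled (adjusted p = 0.051), Retn when only annotated transcripts were counted (0.086), and Cfd under 4 settings besides edgeR's exact test.

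Of the other adipokine genes, 1 of 8 tested was past the binomial test. The leptin gene Lep had 10 reads and 1 read, and resistin's relatives Retnlb and Retnlg had 0 in both libraries. The adiponectin receptor genes Adipor1 (365 and 330 CPM) and Adipor2 (99.8 and 78.2 CPM) and the retinol carrier gene Rbp4 (115 and 147 CPM) were not past the test. Nampt, which codes for an enzyme of NAD synthesis found in serum as visfatin, was the gene past it, 1.63-fold higher in replicate 1 (1.25 to 2.15). Adipsin acts by cutting complement factor B. Of the alternative complement genes, C3 stood at 620 and 701 CPM, the factor B gene Cfb at 20.5 and 16.1 CPM and Cfp at 7.08 and 4.28 CPM, and none of these was past the binomial test, also at an unadjusted p under 0.05. Cfd was read more often than C3, Cfb and Cfp in both libraries.

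The Cfd reads split almost evenly between a pair of acceptor sites at exon 2, 3 bases apart. Cfd-201 (chr10:79890853-79892655, plus strand) keeps the bases CAG and codes for 259 codons, and Cfd-202 (chr10:79890853-79892607) leaves them out and codes for 258. The letters around the junction of exon 1 and exon 2 (GENCODE M21 on mm10, spliced, within chr10:79890957-79891482) are given with the optional bases in capitals.
Cfd-201: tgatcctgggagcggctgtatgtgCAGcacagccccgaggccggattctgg
Cfd-202: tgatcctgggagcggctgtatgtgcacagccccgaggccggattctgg
Of reads across this junction, 1540 of 2915 in replicate 1 used the site of Cfd-202, 52.8% (51.0 to 54.7%), and 916 of 1751 in replicate 2, 52.3% (49.9 to 54.7%). The split differed between the libraries by less than its counting error.

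Lpl and Fabp4 both serve fatty acid uptake, and of the pair Lpl was past the test of total reads and Fabp4 was not. Lpl (chr8:68880491-68906934, plus strand) had 2040 and 653 reads (1444 and 699 CPM), 2.11-fold higher in replicate 1 (1.93 to 2.31, binomial adjusted p = 2.7e-66). Fabp4 (chr3:10204088-10208576, minus strand) had 690 and 451 reads (488 and 483 CPM), a ratio of 1.03 (0.917 to 1.17, adjusted p = 0.888). There were thus 2.96 Lpl reads per Fabp4 read in replicate 1 (2.71 to 3.23) and 1.45 in replicate 2 (1.28 to 1.64). This gap follows from the ratios of the genes just given and is not a separate result. The Fabp4 result depends on which reads are counted: on annotated transcripts alone its log2 ratio was -0.45 (adjusted p = 0.0012), as described with read completeness.

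Partners of lipoprotein lipase went in both directions. The fatty acid transporter gene Cd36 (373 and 212 CPM) was 1.80-fold higher in replicate 1 (1.53 to 2.13), and Lmf1, needed for folding of the lipase, 1.72-fold (1.24 to 2.41). Sel1l, also needed for its exit from the endoplasmic reticulum, was higher in replicate 2, at 58.7 and 111 CPM. The inhibitor gene Angptl4 (44.6 and 54.6 CPM) was not past the test. Of Fabp4's relatives, Fabp3, described with the brown fat genes, was the most abundant with 429 and 82 reads, while Fabp5 had 27 and 20 reads, Fabp7 1 and 2, and Fabp1, Fabp2 and Fabp6 had 0 in both. Endothelium and macrophages, where Fabp4 is also known, gave 465 and 360 reads over 6 marker genes, among them Plvap (217 and 238 CPM) and Emcn (42.5 and 41.8 CPM), and 502 and 412 reads over 7 marker genes, among them Lyz2 (205 and 212 CPM). Of those 13 genes, Tek, C1qa and C1qc were past the test, each higher in replicate 2. Their part in the Fabp4 level was not tested.

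Car3 (chr3:14863538-14872523, plus strand) was the most abundant member, with 5047 and 1926 reads (3572 and 2062 CPM). It was 1.77-fold higher in replicate 1 (1.68 to 1.87, binomial adjusted p = 9.1e-106). No other carbonic anhydrase gene came near it: Car8 was next at 36.8 and 107 CPM and was higher in replicate 2, followed by Car2 at 67.9 and 57.8 CPM. Of the 8 relatives tested, 0 were higher in replicate 1 by the binomial test. Since skeletal muscle is rich in Car3, the muscle reads listed above move with this result too, and their part in it was not tested.

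Car3 reads also held an exon absent from the annotation. It lies in intron 2 at chr3:14865097-14865144, is 48 bases long, and was included in 36 of 4890 reads across that intron in replicate 1, 0.736% (0.516 to 1.02%), and 9 of 1828 in replicate 2, 0.492% (0.225 to 0.933%). Its letters are known from the retained-intron transcript Car3-202 (GENCODE M21 on mm10, chr3:14865077-14865164), shown with 20 bases on either side and the exon in capitals.
Car3 new exon: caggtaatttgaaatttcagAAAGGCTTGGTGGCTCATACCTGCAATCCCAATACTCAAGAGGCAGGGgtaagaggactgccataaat
The bases AG stand before the exon and GT after it, as at most splice sites. Its length is 16 whole codons, and read in the frame of Car3-201 it holds 0 stop codons.

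Smaller shifts of known splice sites recurred in both libraries, and those of Lpl, Fabp4 and Cidec lie within coding sequence. In Lpl, 11 of 1599 reads (0.688%) and 5 of 496 (1.01%) joined exon 4 at an acceptor 3 bases downstream, and the skipped GAG is in capitals in the spliced letters within chr8:68892751-68894653. In Fabp4, 8 of 661 reads (1.21%) and 4 of 432 (0.926%) left exon 3 at a donor 3 bases upstream, and the omitted GTG is in capitals in chr3:10205221-10205261 (minus strand). In Cidec, 11 and 9 reads, 1.38% and 2.55% of the gene's reads, left exon 2 at a donor 12 bases upstream, marked in chr6:113434435-113434470 (minus strand). All are letters of GENCODE M21 on mm10.
Lpl exon 3 and 4: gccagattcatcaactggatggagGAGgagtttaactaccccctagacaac
Fabp4 exon 3 and intron: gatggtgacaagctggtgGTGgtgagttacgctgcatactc
Cidec exon 2 end: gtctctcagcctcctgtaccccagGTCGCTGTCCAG
In Lpl and Cfd the optional bases end in AG, like an acceptor, and in Fabp4 and Cidec the omitted bases begin with GT, like a donor. In Lpl and Fabp4 the marked bases also repeat those on either side. Whether errors of reading or alignment gave these rare junctions was not tested. In Cidea, 10 of 728 reads (1.37%) and 7 of 440 (1.59%) used a donor 4 bases downstream of the annotated end of exon 1, and 5 and 6 reads held a new exon of 104 bases in intron 1.

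How complete the reads were varied among the genes. A read counts as annotated when every splice junction matches an annotated transcript, and as an incomplete match when it holds a run of annotated junctions but lacks some at an end. Car3, Retn, Ucp1 and Cfd had 87.9% or more of their reads on annotated transcripts in both libraries. Lower shares were those of Plin1, with 70.6% and 59.8%, Lpl, with 73.9% and 70.1%, Fabp4, with 75.7% and 53.2%, and Adipoq, with 77.7% and 69.9%. All 10 members had a lower share in replicate 2, with a median difference of -4.23 points, against -1.58 points over all genes tested. The median over members was 78.6% and 72.3%, and over the 6413 genes that held 20 or more reads in each of the libraries it was 80.3% and 76.9%. By Fisher exact test, 2 members were past the adjusted threshold as lower in replicate 2, Fabp4 (adjusted p = 4.0e-12) and Cfd (91.0% and 87.9%, adjusted p = 0.036), and 1.76% of genes were past it in that direction. In either direction the share was 1.86%. Most incomplete Cfd reads were on 2 models drawn from the annotated start. As drawn, one reads through intron 1 (81 and 69 reads) and the other through introns 1 and 2 (60 and 66). A model carries 1 start for all its reads, so shortened reads and reads through these introns cannot be told apart. With annotated and incomplete matches counted together, Fabp4 (-0.777 points, adjusted p = 0.914) and Cfd (-0.0091 points, adjusted p = 1.0) were no longer past the Fisher exact test, and Adipoq (-9.20 points, adjusted p = 2.5e-06) and Lpl (-4.26 points, adjusted p = 7.6e-06) were. Over all 6413 genes, 345 were past it in that setting. The classes of single-exon Lpl reads differed between the libraries: 42 and 0 were incomplete matches, and 6 and 24 were Genomic, the class for reads of no spliced category. Together they were 2.35% and 3.68% of Lpl reads. Genomic Adipoq reads were 0 and 19. Whether the Genomic and the incomplete single-exon reads of these genes are of the same kind was not tested.

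**Figure D4:**
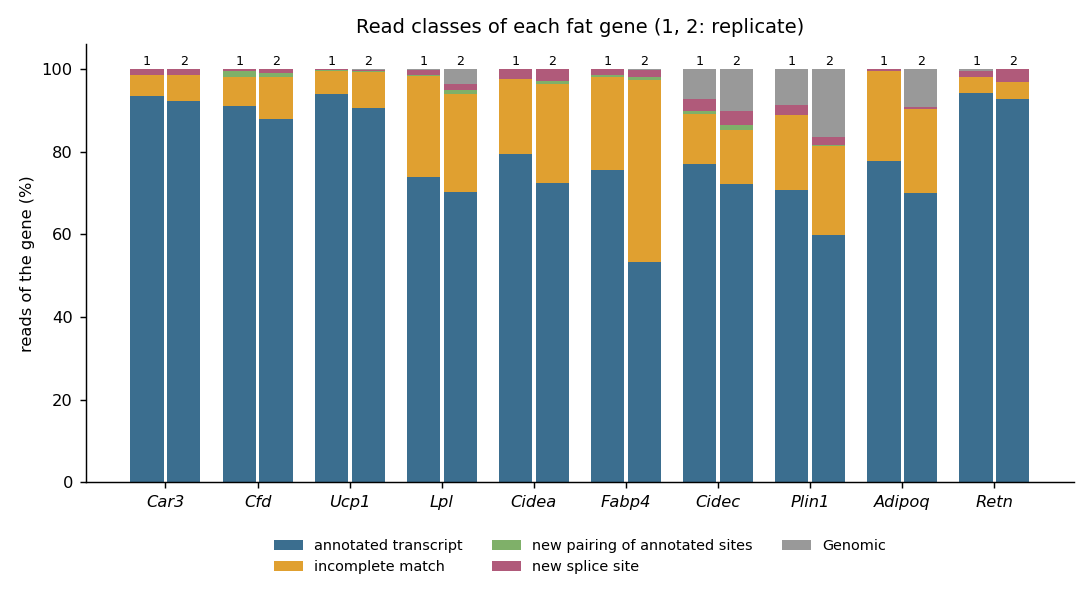
Share of each gene's reads (%) on annotated transcripts, incomplete matches, new pairings of annotated splice sites, new splice sites and Genomic models, a class for reads that fit no spliced category, for replicates 1 and 2. The annotated part of Fabp4 falls from 75.7% to 53.2%, and the incomplete part grows in its place.

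Fabp4 carried the largest change of structure. Its full transcript Fabp4-201 held 500 of 690 reads (72.5%) and 227 of 451 (50.3%), the only member past the Fisher exact test of the main isoform (adjusted p = 2.3e-11), where 2.21% of genes were past it. Reads lacking the 5′ part made up 22.2% and 43.7% of the gene's reads. Most of these had exons 3 and 4 only, with 96 reads (13.9%) in replicate 1 and 152 (33.7%) in replicate 2. The first Fabp4 intron was spanned by 74.5% and 51.2% of reads, the second by 82.0% and 62.1%, and the last by 94.6% and 94.9%. The difference between the libraries thus lay in the 5′ part of the reads, and at the 3′ end they matched. When incomplete and Genomic reads were left out, the main isoform share of Fabp4 differed by -3.02 points (adjusted p = 0.850).

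**Figure D5:**
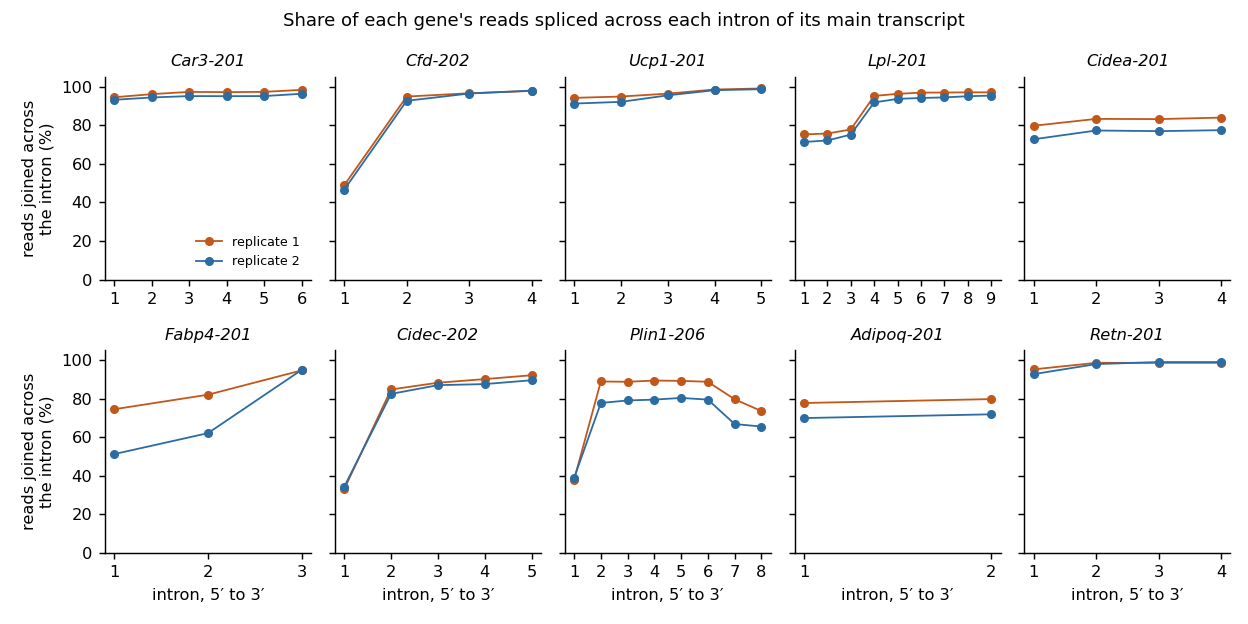
Share of each gene's reads (%) spliced across each intron of its main transcript, from 5′ to 3′, in replicates 1 and 2. Lpl steps up at intron 4 in both libraries, Fabp4 differs at introns 1 and 2, and Plin1 falls at introns 7 and 8; the first points of Cfd, Cidec and Plin1 count the first junction of the main transcript only, and other first junctions of these genes are not drawn.

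Lpl had a step of another kind, present in both libraries. Introns 1 to 3 were spanned by 75.3% to 77.8% of its reads in replicate 1 and by 71.4% to 75.2% in replicate 2, and introns 4 to 9 by 95.2% to 97.1% and by 91.9% to 95.4%. The model that holds only the junctions from exon 4 on had 343 reads in replicate 1 (16.8%) and 103 in replicate 2 (15.8%). Plin1 had its gap at the 3′ end, where intron 8 was spanned by 73.6% and 65.5% of reads and intron 6 by 88.7% and 79.5%. The difference between the libraries was not confined to that end: intron 2 was spanned by 88.9% and 77.7%. Genomic reads made up 8.76% and 16.6% of Plin1 reads. Incomplete matches without the last annotated junctions made up 12.5% and 14.8% of Plin1 reads, and no more than 0.443% of any other member's. Some of these Plin1 models are drawn to an annotated 3′ end without the last junction. A model carries 1 end for all its reads, so shortened reads and reads that keep the last intron cannot be told apart. Cidea and Adipoq instead had many reads from the last exon alone. Of Cidea reads these were 142 (15.8%) and 132 (22.2%), and of Adipoq reads 80 (20.3%) and 38 (18.4%). Replicate 2 held a further 19 single-exon Adipoq reads of the Genomic class (9.22%), against 0 in replicate 1, which makes 57 reads or 27.7% in all. Such single-exon reads carry no junction and show nothing of the upstream structure.

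Genes that govern the fat program, and those that make triglyceride, did not follow the members as a block. Of 14 fat cell transcription factor genes tested, 4 were higher in replicate 1, 2 in replicate 2 and 8 were not past the binomial test, with a median log2 ratio of 0.07. Cebpa, which drives terminal adipocyte differentiation, was 1.76-fold higher in replicate 1 (1.42 to 2.20) at 216 and 125 CPM. Cebpb was the most abundant, at 2903 and 2615 CPM, and Esrra was 1.64-fold higher (1.26 to 2.15). Srebf1, a regulator of lipid synthesis, was level at 261 and 270 CPM. Of 15 triglyceride synthesis genes, 5 were higher in replicate 1, 3 in replicate 2 and 7 were not past the test. Agpat2 (1787 and 945 CPM) was 1.93-fold higher in replicate 1 and Gpd1 (1302 and 958 CPM) 1.39-fold, while Acly, at 3549 and 6291 CPM, was higher in replicate 2 and Thrsp (1645 and 1576 CPM) was not past the test. Adrenal cortex expresses many of these synthesis genes as well. The white fat list leaned to replicate 1 as the members did, with a median log2 ratio of -0.81 over the 6 genes tested. It held few reads, 243 and 103 in all, a ratio of 1.59 (1.26 to 2.03). Of its genes only the amino acid transporter gene Slc7a10 was past the test, with 62 and 9 reads, 4.66-fold higher in replicate 1 (2.30 to 10.7). Hoxc8 had 36 and 13 reads, Tcf21 80 and 32, Nnat 44 and 32, and Hoxc10 and Wfdc21 had 0 in both.

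Among the lists for other cells of the gland, 3 of 5 medulla genes were higher in replicate 1 as most fat genes were, with the catecholamine enzyme gene Th at 1524 and 1021 CPM, Chga at 4973 and 3880, Chgb at 5083 and 4075, and Pnmt, not past the test, at 312 and 363. The cortex list split, with Cyp11b1 (20398 and 13534 CPM) and Cyp11a1 (19260 and 18500) higher in replicate 1 and Star (8352 and 12540) and Cyp21a1 (15598 and 17939) higher in replicate 2. The fibroblast list, with Col3a1 (217 and 245 CPM), Dcn (159 and 124), Col1a1 (35.4 and 62.1) and Lum (38.2 and 21.4), had 0 of 6 genes past the binomial test, and 3 at an unadjusted p under 0.05. These lists were set beside the fat genes as measured, and their part in the differences was not tested. Scaling by the ERCC spike-in RNAs in place of gene reads shifted all log2 ratios by -0.33, and then all 10 members were past the binomial test as higher in replicate 1, with 19.1% of genes.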

How the data were processed

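Transcript models of each library came as an annotation and as a table of counts, which per the file headers are numbers of whole long reads as deposited. Per the labels and headers the build is mm10, the reference GENCODE M21, and the classes are those of TALON. The deposited tables also give exon numbers and lengths, and the annotation starts and ends. Aligner, version and filters are not given in the sources used here. The members and lists were chosen with earlier results of these data known. A gene's count is the sum of its models, without ERCC spike-ins. Depth was 1478362 and 1007541 reads.

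Ratios used TMM-scaled gene totals (edgeR 4.0.16, factors 0.989 and 1.01). Genes with 10 or more reads in total were compared by a two-sided exact binomial test given the gene's total. Genes with 20 or more reads in both were compared by two-sided Fisher exact tests of the share of the most abundant isoform and of annotated transcripts. P-values were adjusted by Benjamini-Hochberg over all genes tested (threshold 0.05), and intervals are 95% exact (Clopper-Pearson). The binomial and Fisher tests were run on counts simulated with counting error alone, so that check does not cover further spread between libraries. New multi-exon models were matched by intron chain, and new single-exon models were pooled per gene. A model carries 1 start and 1 end, so ends of single reads were not used. Junctions and motifs were read with Python 3.11.15 from GENCODE M21 transcripts and RefSeq promoter windows. Named are all members and, of each other list, at most 4 genes by highest mean level and at most 3 without reads. Some genes that this rule names are not reported here. Lep was named after its values were seen. Alternatives were other scalings (DESeq2 1.42.0 size factors among them), read minimums, model classes and edgeR's exact test.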

Additional observations from a re-analysis of the deposited data

Results flagged for a closer look

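Reads on the strand opposite Plin1 lie outside the gene counts, and they passed the 3 reads that a count of 0 allows in both libraries. There were 239 in replicate 1 and 167 in replicate 2. Nearly all, 238 and 161, fell on a single-exon model of 947 bases at chr7:79720218-79721164 on the plus strand, within the last exon of Plin1-206. Its bounds are the annotated 3′ end of Plin1-206 and that of Plin1-201 and Plin1-202. Whether they are ends of a separate RNA was not tested. On the CPM scale of gene reads that model stood at 168 and 172, while Plin1 itself stood at 452 and 245 CPM. No other member had more than 6 opposite-strand reads in a library. On the strand of Plin1, 2 models that span 1 base held 50 and 29 reads, of which 43 and 25 were at the 3′ end of the gene.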

How the results depend on the processing

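With 1 group of 2 libraries, intervals and p-values cover counting error only, no spread between animals is measured, and the share of the fat genes without replicate 1 or without replicate 2 is each library's own, 0.753 to 1.15%. No paired analysis was possible because there is only 1 group.

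With ERCC spike-in totals the genes past the binomial test went from 1286 to 2360. With edgeR's exact test they were 27, and fat genes past it 0. Without incomplete and Genomic models, the genes past the main isoform test fell from 142 to 53 and fat genes to 0. With the chi-square test over all isoforms 4 fat genes were past it, among 145 of 5429 genes tested. They were Fabp4, Car3 (adjusted p = 0.0033), Plin1 and Cidec. With annotated and incomplete matches counted together, genes past the annotated share test were 345 in place of 119, and the fat genes past it were Adipoq and Lpl in place of Fabp4 and Cfd. Cidea turned to a log2 ratio of 0.00023 without further scaling and of 0.0028 without Genomic models, the Adipoq main isoform share to 0.281 points without incomplete and Genomic models, and the Car3 annotated share to 0.0398 points with incomplete matches added (adjusted p = 1.0 in each). The cause was not tested. Calls of Cfd were lost without further scaling, with no minimum of reads, on annotated transcripts and without Genomic models. The other settings gave counts within 1.5 times.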
